A study of Mus musculus with 2 samples.

Results

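The TRIM family, genes whose symbol is Trim followed by a number, was examined in RNA sequencing of splenic regulatory T (Treg) cells, the Foxp3-expressing CD4 T cells that hold immune responses in check. Of 23248 genes listed in either library, 59 were members by this rule: 55 were listed in both libraries, Trim30e-ps1, Trim55 and Trim66 in the leukemia library alone, and Trim43a in the healthy library alone. A gene missing from a table was counted as 0. Members known to be induced by interferon (16) were described apart from the other 43. The remaining 10 Trim symbols of the reference gene table, among them the interferon-induced Trim38, were not analysed here.

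Both groups were mice on a B6.129 background, aged 6 to 8 weeks, and leukemia mice and healthy controls alike carried the Foxp3tm3(DTR/GFP)Ayr allele. It places the diphtheria toxin receptor and green fluorescent protein under control of Foxp3, so that Foxp3-expressing cells can be sorted. Leukemia mice had received 800000 leukemia cells without irradiation, and their CD4+ FOXP3-GFP+ spleen cells were sorted at day 18 of a disease with a survival of 30 to 40 days. Healthy mice had been given phosphate-buffered saline. Each group was 1 library, so no difference below has a replicate check, and the labels do not say whether a library pooled several mice. The labels name the disease as acute myeloid leukemia.

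TRIM proteins carry a tripartite motif of a RING finger, B-boxes and a coiled coil, and most act as ubiquitin ligases, which attach ubiquitin to a bound target. The C-terminal domain, most often a PRY-SPRY fold, chooses that target. Many members are themselves interferon-induced genes: they restrict viruses or tune the sensors and kinases that lead to interferon, while others serve in transcription, the cell cycle or muscle.

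The libraries held 8929601 (healthy) and 8897162 (leukemia) estimated reads. The Treg markers Foxp3 (104 and 62.7 FPKM in healthy and leukemia) and Cd4 (267 and 184 FPKM) were present in both. FPKM counts fragments per kilobase of transcript and per 1000000 fragments, and so allows genes to be compared per length. The libraries did not hold the same mixture of RNA. All 10 markers of myeloid progenitors and granules were at least 2-fold higher in leukemia, against 6.55% of all genes at 1 FPKM or more. Their summed levels were 4.65 (healthy) and 1236 FPKM (leukemia). Among them Cebpe counted as 0 in the healthy library. Summed levels were 2970 and 2121 FPKM for 10 T cell and Treg markers, 825 and 905 FPKM for 10 macrophage and monocyte markers, and 119 and 397 FPKM for 12 mitosis and replication markers, all 12 higher. The macrophage and monocyte markers did not move together. Of the 10, 7 had a log2 ratio below 0 (46.9% of all genes at 1 FPKM or more), 2 of them 2-fold lower (1.95%). The median log2 ratio of the 10 was -0.83. Ly6c2, a monocyte marker, was higher at 23.7 and 437 FPKM, as was Itgam at 1.01 and 5.01 FPKM. Of 6 B cell markers 2 reached 1 FPKM, and none was past 2-fold. The part of these other cells in the values below was not tested, and in bulk RNA fewer cells of a type and less RNA per cell cannot be told apart.

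Promoters of 8 interferon-induced members carried the letters of the interferon-stimulated response element, and the matches are shown because it is the element through which interferon acts on such genes. The motif searched, on both strands, was GAAA, any 2 bases and GAAA again (TTTC, 2 bases and TTTC on the opposite strand), the core that interferon regulatory factors bind. RefSeq promoters (GRCm38.p6, 250 bases before to 50 after a start) were held for 14 of the 16 interferon-induced members and 31 of the 43 others. The motif occurred in 9 of 15 promoters of the interferon-induced members (exact 95% interval 32.3% to 83.7%). It occurred in 1 of 44 promoters of the other members (2.27%, 0.0575 to 12.0), that of Trim2, and in 3.44% of all 32851 promoters. Copies with near-identical windows, given below, and several starts of the same gene were counted as separate promoters. The promoter intervals treat them as independent, which they are not, so they are too narrow. The windows below give 30 bases around the match in the direction of transcription, with the match in capitals. They are Trim30a chr7:104465210-104465239 (minus strand), Trim30d chr7:104507871-104507900 (minus), Trim12a chr7:104315466-104315495 (minus), Trim5 chr7:104288136-104288165 (minus), Trim12c chr7:104353359-104353388 (minus), Trim34a chr7:104244457-104244486 (plus), Trim21 chr7:102565450-102565479 (minus) and Trim26 chr17:36836976-36837005 (plus).
Trim30a: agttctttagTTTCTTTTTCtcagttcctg
Trim30d: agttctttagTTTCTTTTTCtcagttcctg
Trim12a: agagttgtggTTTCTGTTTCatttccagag
Trim5: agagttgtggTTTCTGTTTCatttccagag
Trim12c: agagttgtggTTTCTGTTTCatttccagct
Trim34a: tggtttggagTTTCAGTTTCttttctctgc
Trim21: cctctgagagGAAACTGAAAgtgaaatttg
Trim26: ccgcttccgaTTTCACTTTCcttttctcgg

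The Trim30a and Trim30d windows had 0 different bases of 30, as had those of Trim12a and Trim5, and Trim12c differed from Trim12a at 2 bases. Trim21 and Trim26 each held a second match that overlapped the first. Matches lay before the start in Trim30a (from -36), Trim30d (-41), Trim12c (-29), Trim5 (-49) and Trim26 (-160), and after it in Trim12a (from 11), Trim34a (11), Trim21 (14) and a second start of Trim30a (3, chr7:104446104-104446133, whose window differs from the first at 4 bases), counting the first transcribed base as 1. With the 250 bases before the start alone, 5 of 15 interferon-induced promoters (33.3%) held the motif, against 2.98% of all. The STAT motif TTCNNNGAA, searched in the same promoters, occurred in 1 of 15 promoters of the interferon-induced members (6.67%, exact 95% interval 0.169 to 31.9, in Trim30c), in 5 of 44 promoters of the others (11.4%) and in 8.30% of all promoters. No match of the 2 motifs overlapped the other in a member's promoter.

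For comparison, the 250 bases before the start are given for Trim30a (chr7:104465194-104465443, minus strand, with the match in capitals) and for Trim28 (chr7:13023902-13024151, plus strand), the member with the highest level in the leukemia library. Trim28 held no match, which says only that these letters are not in its window.
Trim30a: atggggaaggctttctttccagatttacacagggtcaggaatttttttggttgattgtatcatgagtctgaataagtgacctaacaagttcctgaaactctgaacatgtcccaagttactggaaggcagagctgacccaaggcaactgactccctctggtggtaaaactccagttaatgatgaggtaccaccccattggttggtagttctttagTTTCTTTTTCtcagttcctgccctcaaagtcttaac
Trim28: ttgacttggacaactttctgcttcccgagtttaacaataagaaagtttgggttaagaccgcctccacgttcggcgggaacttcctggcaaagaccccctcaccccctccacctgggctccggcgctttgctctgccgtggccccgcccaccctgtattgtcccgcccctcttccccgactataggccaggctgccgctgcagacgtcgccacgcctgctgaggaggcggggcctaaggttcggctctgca

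Of the 59 members, 36 reached 1 FPKM in healthy, 37 in leukemia and 39 in either, and 20 stayed under 1 FPKM in both. The members' levels summed to 792 FPKM in healthy and 666 FPKM in leukemia, a ratio of 0.841. Interferon-induced members supplied 55.6% of that sum in healthy and 44.1% in leukemia. Their own sum went from 440 to 294 FPKM (ratio 0.668), and that of the others from 352 to 372 FPKM (1.06). The sum over all genes went from 538138 to 567681 FPKM (1.05). Among the others Trim28 went from 53.1 to 84.9 FPKM, while 16 of the 27 others at 1 FPKM or more had a lower level in leukemia. The member with the highest level was Trim12a (115 FPKM) in healthy and Trim28 (84.9 FPKM) in leukemia.

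**Figure D1:**
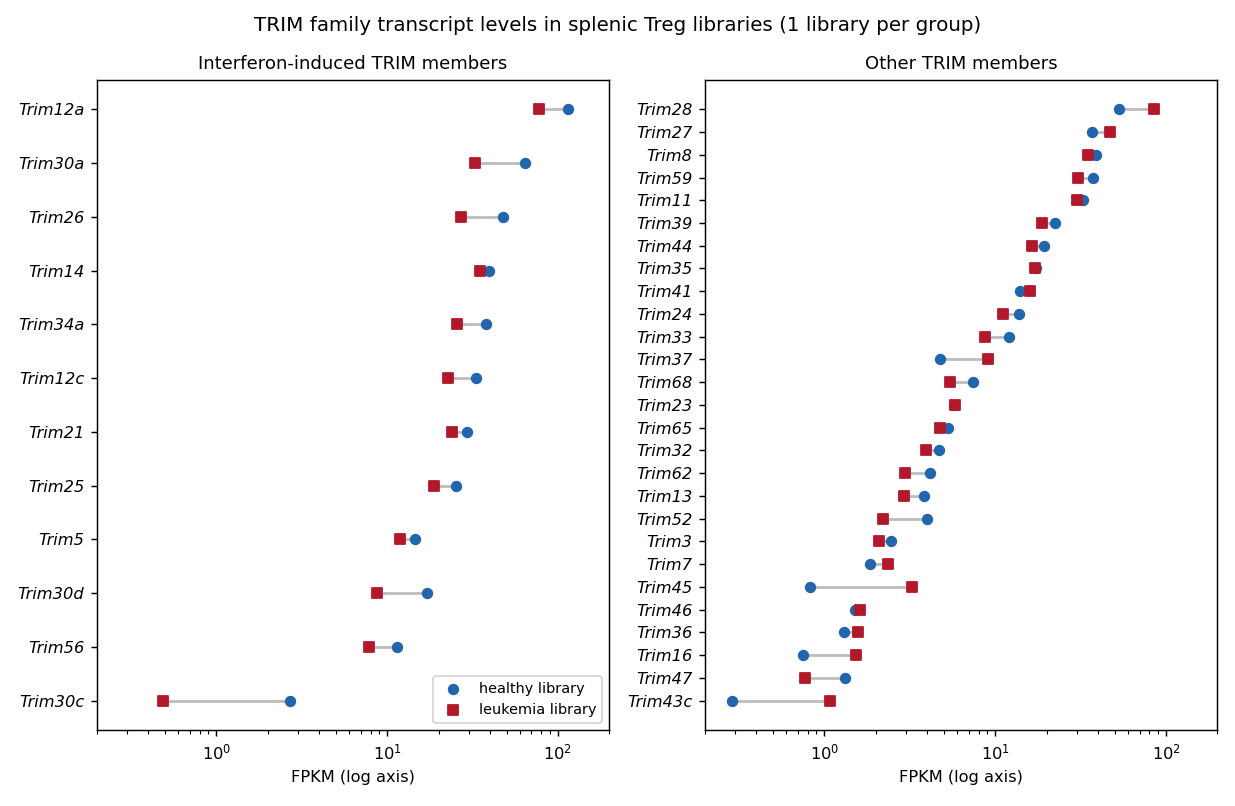
FPKM of each TRIM member at 1 FPKM or more in either library, on a log axis, with the healthy library as circles and the leukemia library as squares, 1 library each. All 12 interferon-induced members lie lower in leukemia, and the other 27 lie on both sides, with Trim28 going from 53.1 to 84.9 FPKM and Trim45 from 0.83 to 3.25 FPKM.

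Few members differed by 2-fold. Differences are given as the log2 of leukemia FPKM + 1 over healthy FPKM + 1, a ratio that understates ratios of genes with low levels, over genes that reached 1 FPKM in at least 1 library. A value of 1 or more was called higher and of -1 or less lower, which is no test. Of 39 members at 1 FPKM or more, 1 was higher (Trim45), against 6.55% of all 13717 genes, and 1 was lower (Trim30c), against 1.95%. The median log2 ratio was -0.53 over the 12 interferon-induced members that passed this filter and -0.12 over 27 others, beside 0.02 for all genes. With no filter the medians were -0.45 over 16 and -0.01 over 43, beside 0.00 for all 23248 genes. All 12 interferon-induced members that passed lay below 0, as did 46.9% of all genes, and of the 27 others 16 did.

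Beside each level below, the read ratio is the ratio of estimated reads, each divided by its library's total, with an exact (Clopper-Pearson) 95% interval that covers counting error only and compares these libraries, not the conditions. The interval lay below 1 for all 12 interferon-induced members at 1 FPKM or more, against 23.5% of all genes, and for 8 of the 27 others. It lay above 1 for 6 of the others and for none of the interferon-induced members, against 29.0% of all genes. Among genes at 10 FPKM or more, where counting error is smaller, the interval lay below 1 for 17 of 22 members (30.3% of all such genes) and above 1 for 2 (35.7%), and 19 of the 22 had a log2 ratio below 0 (46.6%). The 17 were all 11 interferon-induced members at this level and 6 of the 11 others, and the 2 above 1 were others. The 19 were the same 11 and 8 of the others.

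**Figure D2:**
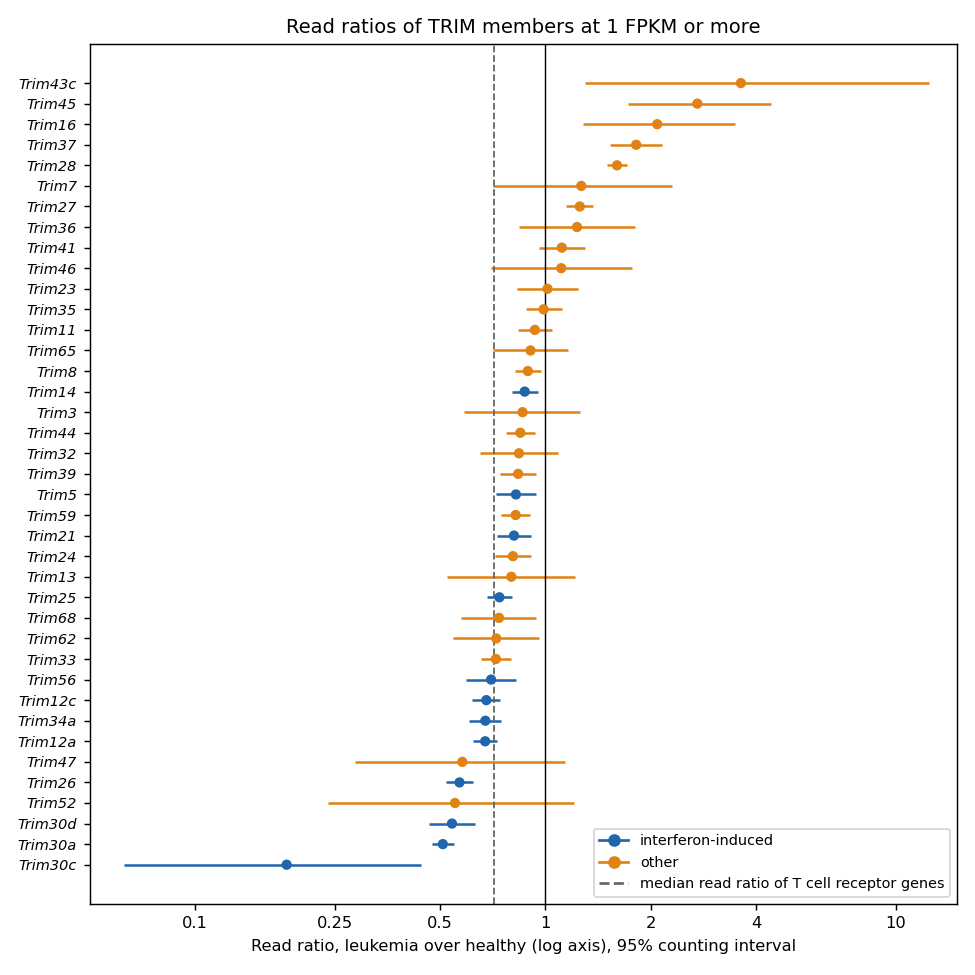
Read ratio of leukemia over healthy for the 39 members at 1 FPKM or more, on a log axis, with bars for the 95% counting interval; the solid line marks 1 and the dashed line 0.715, the median read ratio of 16 T cell receptor signalling genes. The interferon-induced members all lie left of the solid line, and Trim30c, Trim30a, Trim30d and Trim26 have intervals wholly left of the dashed line.

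Trim30c, Trim30a and Trim30d had the lowest log2 ratios of the interferon-induced members. Trim30a (NCBI Gene 20128), known to restrain Toll-like receptor signalling to NF-kappaB, stood at 64.1 and 32.7 FPKM (healthy first, here and below), a read ratio of 0.509 (0.473 to 0.548) and a log2 ratio of -0.95. Its neighbour Trim30d (209387) stood at 17.1 and 8.70 FPKM, a read ratio of 0.541 (0.466 to 0.628) and a log2 ratio of -0.90. Both lay just short of the 2-fold rule. Trim30c (434219) passed it on few reads, with 33.0 and 6.00 estimated reads, 2.71 and 0.49 FPKM, a read ratio of 0.182 (0.0625 to 0.441) and a log2 ratio of -1.32. Trim30b stood at 0.43 and 0.40 FPKM. The pseudogene Trim30e-ps1 was missing from the healthy library, counted as 0, and stood at 0.12 FPKM in leukemia. Reads that match several genes were shared out by estimate, which touches Trim30a and Trim30d more than the other copies. Of the 50-base words in reference transcripts, Trim30a shared 5.98% and Trim30d 7.49% with another gene, Trim30c 0.66% and Trim30b 0.55%. Summed over Trim30a to Trim30d the levels were 84.3 and 42.3 FPKM, a read ratio of 0.513 (0.481 to 0.547) and a log2 ratio of -0.98.

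In the same gene cluster on chromosome 7, Trim12a, Trim12c, Trim5, Trim34a and Trim34b were closer to even than Trim30a, Trim30c and Trim30d. Trim12a (76681) stood at 115 and 77.4 FPKM, a read ratio of 0.673 (0.622 to 0.728). Trim12c (319236) stood at 33.3 and 22.9 FPKM (read ratio 0.678, 0.618 to 0.744), and Trim5 (667823) at 14.5 and 12.0 FPKM (read ratio 0.824, 0.722 to 0.939). Trim34a (94094) stood at 37.9 and 25.8 FPKM (read ratio 0.674, 0.606 to 0.749), and its copy Trim34b at 0.83 and 0.77 FPKM. Their log2 ratios were -0.57, -0.52, -0.26, -0.54 and -0.05. Copies again limit single values, since Trim34b shared 56.8% of its words with Trim34a, Trim5 36.3% and Trim12c 33.0% with other genes. Summed read ratios were 0.675 for Trim12a and Trim12c, 0.699 (0.662 to 0.738) for these with Trim5, and 0.677 for both Trim34 genes, of which Trim34b alone was at 0.912 (0.347 to 2.37). Trim6, the first gene of this cluster, held 2 reads in each library.

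The interferon-induced members outside these copies spanned a similar range. Trim26 (22670), which acts on the interferon transcription factor IRF3, stood at 47.8 and 27.1 FPKM, a read ratio of 0.569 (0.520 to 0.621) and a log2 ratio of -0.80. Trim56 (384309), which takes part in nucleic acid sensing through STING, stood at 11.4 and 7.83 FPKM (read ratio 0.700, 0.593 to 0.824). Trim25 (217069), a ligase for the RNA sensor RIG-I, stood at 25.4 and 18.7 FPKM (read ratio 0.739, 0.679 to 0.804). Trim21 (20821), the cytosolic antibody receptor, stood at 29.4 and 23.9 FPKM (read ratio 0.813, 0.729 to 0.908). Trim14 (74735), which lacks the RING finger and acts with the adaptor MAVS, was nearest to even at 39.8 and 34.9 FPKM, a read ratio of 0.873 (0.800 to 0.951). The log2 ratios of Trim56, Trim25, Trim21 and Trim14 were -0.49, -0.42, -0.29 and -0.18.

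T cell genes were also lower in the leukemia library. The 16 T cell receptor signalling genes had a median log2 ratio of -0.48, all 16 below 0 (46.9% of all genes), and a median read ratio of 0.715. Against that ratio the read-ratio interval lay wholly below for 4 interferon-induced members (Trim30a, Trim30c, Trim30d and Trim26), held it for 5 (Trim12a, Trim12c, Trim34a, Trim56 and Trim25) and lay wholly above for 3 (Trim5, Trim14 and Trim21). Of all genes at 1 FPKM or more, 3.71% lay wholly below and 67.1% wholly above. The 16 T cell receptor signalling genes that set this ratio were themselves spread around it. Of them 5 lay wholly below, 7 held it and 4 lay wholly above. Of the 10 T cell and Treg markers, 4 lay wholly below, 3 held it and 3 lay wholly above. Among these markers Ctla4, Foxp3, Il2ra and Ikzf2 had read ratios of 0.535, 0.602, 0.619 and 0.690. The intervals of Trim30d and Trim26 hold the ratios of Ctla4, Foxp3 and Il2ra. That of Trim30a holds the ratio of Ctla4 alone, and that of Trim30c lies below all of them. Dividing the leukemia levels by the median FPKM ratio of these T cell genes, 0.716, moved the median of all genes to 0.45, that of the interferon-induced members to -0.065 and that of the other members to 0.32. On that scale 8 of the 12 interferon-induced members lay below 0, where 13.1% of all genes did, and Trim25, Trim5, Trim21 and Trim14 lay above 0. Of the 39 members 3 were then higher (Trim45, Trim37 and Trim28; 14.0% of all genes) and 1 lower (Trim30c; 1.10%). Trim30a, Trim30d and Trim26 lay at -0.48, -0.46 and -0.33, and Trim30c at -1.14.

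Other interferon-induced genes were lower by more. All 30 genes of a list without TRIM members lay below 0, as did 46.9% of all genes. Their median log2 ratio was -0.86, or -0.42 when centred on T cell genes. Of the 30, 11 were 2-fold lower, against 1.95% of all genes. The largest were Oas2, which makes the activator of RNase L (24.3 and 6.37 FPKM, -1.78), Rsad2, encoding the antiviral enzyme viperin (11.8 and 3.02 FPKM, -1.67), and Ifit1, which binds viral RNA (41.7 and 12.9 FPKM, -1.62). Among the interferon-induced TRIM members only Trim30c, at -1.32, was past 2-fold. Genes of the interferon receptor and its signalling had a median of -0.43 over 11, with 2 lower (1.95% of all genes). Of the 11, 8 lay below 0 (46.9% of all genes) and 3 above 0. The transcription factor Irf7 (111 and 44.1 FPKM, -1.31) and Usp18, a brake on the receptor (54.5 and 22.4 FPKM, -1.24), were lower, Stat2 lay at -0.93, and the receptor chain Ifnar2 lay at 0.45 (53.6 and 73.7 FPKM). Of the 10 macrophage and monocyte markers in the same libraries, 7 lay below 0 (46.9% of all genes), from Vcam1 at -1.24 to Csf1r at -0.64. Among these 7, C1qa, C1qb and C1qc lay at -0.83, -0.99 and -0.93. The other 3, Cd68, Itgam and Ly6c2, lay at 0.79, 1.58 and 4.15. These genes were named after their values were seen, and the part of macrophage RNA in the Trim30 values was not tested.

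**Figure D3:**
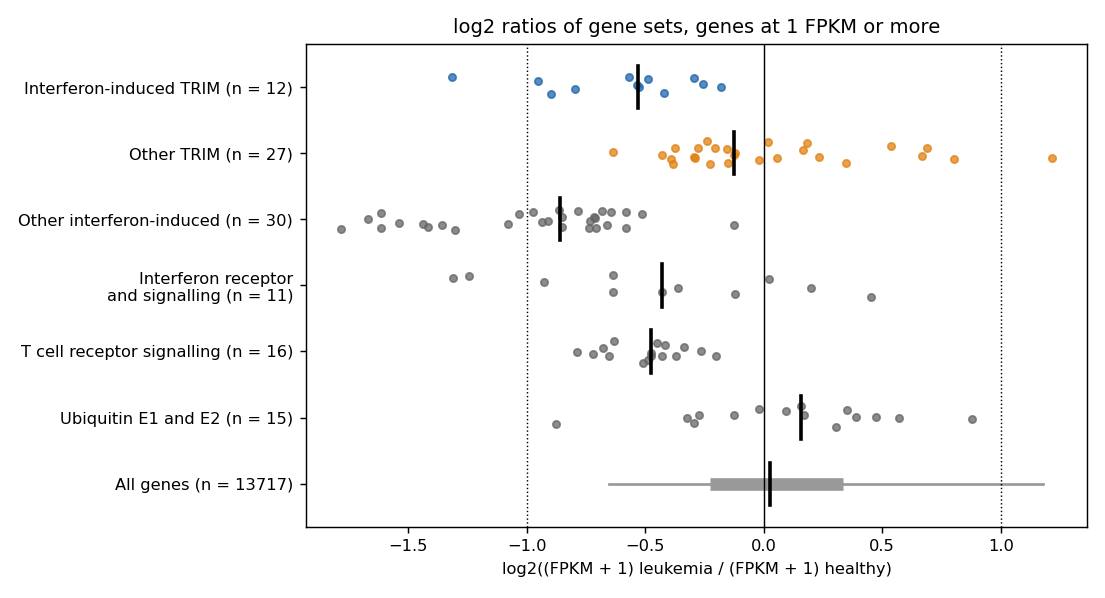
The log2 ratio of each gene at 1 FPKM or more in 6 sets, with a black bar at each set's median, above the median, middle 50% (thick bar) and middle 90% (thin line) of all 13717 genes; dotted lines mark the 2-fold rule. The interferon-induced TRIM median of -0.53 lies nearer to the T cell receptor signalling median of -0.48 than to the -0.86 of the other interferon-induced genes.

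Nucleic acid sensors and adaptors, which several TRIM ligases serve, had a median of -0.39 over 11 genes. Of these 1 was lower (1.95% of all genes) and 1 higher (6.55%). Among the RNA sensors that interferon induces, Dhx58 was the lower gene, at 28.7 and 13.1 FPKM (-1.07). Short of the 2-fold rule were Ddx58, encoding RIG-I, at 31.1 and 15.3 FPKM (-0.98) and Ifih1, encoding MDA5, at 15.7 and 7.75 FPKM (-0.93). The DNA sensor Cgas was the higher gene, at 2.57 and 6.73 FPKM (1.11). The adaptor genes differed among themselves. Sting1 stood at 80.9 and 80.4 FPKM (read ratio 1.00, 0.934 to 1.07) and Mavs at 6.99 and 8.57 FPKM (read ratio 1.21, 0.992 to 1.48), with intervals that hold 1. Traf6 stood at 13.3 and 9.89 FPKM (read ratio 0.740, 0.660 to 0.828) and Traf3 at 14.6 and 13.0 FPKM (read ratio 0.899, 0.818 to 0.988), with intervals below 1.

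In the reference gene order, Trim6, Trim34a, Trim5, Trim12a, Trim34b, Trim12c, the Trim30 genes and Trim30e-ps1 stood next to each other on chromosome 7, with 1 other coding gene, between Trim12c and Trim30b. Summed over these 11 members the level was 286 FPKM in healthy and 181 FPKM in leukemia, a ratio of 0.634. All 7 that reached 1 FPKM lay below 0 (46.9% of all genes), with a median log2 ratio of -0.57. These 7 are among the 12 interferon-induced members given above, so they are no further result. On chromosome 17, Trim26, Trim15, Trim10, Trim40 and Trim31 were neighbours, but only Trim26 reached 1 FPKM. Trim15 stood at 0.63 and 0.62 FPKM, Trim31 at 0.25 and 0.55 FPKM, Trim40 at 0.16 and 0.50 FPKM, and Trim10 at 0.05 and 0.10 FPKM. Trim39, 9 coding genes from Trim26, stood at 22.4 and 18.8 FPKM, a read ratio of 0.836 (0.742 to 0.942).

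**Figure D4:**
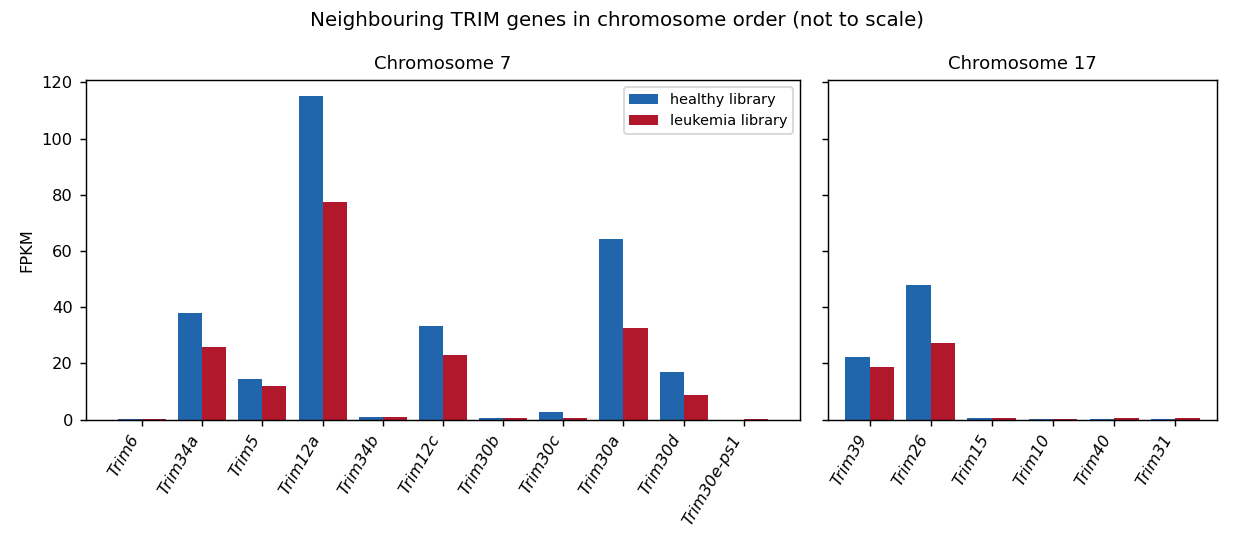
FPKM in the healthy and leukemia libraries (1 each) of neighbouring TRIM genes in their order on chromosomes 7 and 17, with distances not to scale. The bars of Trim12a (115 and 77.4 FPKM), Trim30a (64.1 and 32.7 FPKM) and Trim26 (47.8 and 27.1 FPKM) are lower in leukemia, while Trim6, Trim10 and Trim15 stay under 1 FPKM.

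Interferon-induced members with and without the response element overlapped in their log2 ratios. The 8 with a match that reached 1 FPKM had log2 ratios from -0.95 to -0.26 and a median of -0.55, and the 3 without one (Trim30c, Trim25 and Trim56) from -1.32 to -0.42 with a median of -0.49. Trim14 had no promoter entry. Over all genes with a promoter entry that reached 1 FPKM, the 427 with a match had a median log2 ratio of -0.09, with 17 lower (3.98%) and 22 higher (5.15%). The 9933 such genes without a match had a median of 0.03, with 0.967% lower and 6.05% higher.

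Among the other members, the transcriptional regulators of the TIF1 group, which carry a PHD finger and a bromodomain that read histone tails, differed from each other. Trim28 (21849), the corepressor recruited by KRAB zinc finger proteins to silence retroelements, stood at 53.1 and 84.9 FPKM on 1556 and 2482 reads, a read ratio of 1.60 (1.502 to 1.71) and a log2 ratio of 0.67. Trim24 stood at 13.9 and 11.1 FPKM (read ratio 0.808, 0.718 to 0.908), and Trim33, which works with Smad proteins in TGF-beta signalling, at 12.1 and 8.74 FPKM (read ratio 0.722, 0.654 to 0.797). The interval of Trim28 does not overlap those of Trim24 and Trim33. Trim66, with 0 and 9 reads, reached 0.11 FPKM in leukemia, and its read-ratio interval starts at 1.98. Centred on T cell genes, Trim28 lay at 1.14 and past the 2-fold rule, Trim24 at 0.15 and Trim33 at 0.01.

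By absolute size, the log2 ratios of Trim45, Trim37, Trim43c, Trim28 and Trim52 were the largest among the other members. Trim45 (229644), a filamin-domain member, stood at 0.83 and 3.25 FPKM, a log2 ratio of 1.22. Its FPKM ratio, with no pseudocount, was 3.92, and its read ratio was 2.71 (1.72 to 4.39) on 27 and 73 reads. The deposited transcript length was 3606 bases in healthy and 2509 bases in leukemia, and on length-free TMM-scaled counts its log2 ratio was 1.18. Trim37 (68729), a MATH-domain ligase that limits centrosome assembly, stood at 4.76 and 9.06 FPKM, a read ratio of 1.82 (1.53 to 2.16) and a log2 ratio of 0.80. The 12 mitosis and replication markers (119 and 397 FPKM in sum) and the 10 myeloid progenitor and granule markers (4.65 and 1236 FPKM) were higher in the same library, and their part in the values of Trim45, Trim37 and Trim28 was not tested. Trim43c stood at 0.29 and 1.08 FPKM, a read ratio of 3.61 (1.29 to 12.4), but it shared 42.1% of its words with other genes, and the sum of the Trim43 copies had a read ratio of 1.71 (0.954 to 3.13). Trim52 stood at 3.97 and 2.2 FPKM on 19.9 and 11 reads, a read ratio of 0.552 (0.239 to 1.21) that holds 1.

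None of the remaining other members passed the 2-fold rule, though several had read-ratio intervals that leave out 1. Trim27 (19720), a nuclear and cytoplasmic ligase, stood at 36.7 and 47.0 FPKM (read ratio 1.25, 1.15 to 1.37). Trim8 (93679), a partner of the cytokine inhibitor SOCS1, stood at 39.2 and 35.1 FPKM (read ratio 0.891, 0.818 to 0.970), and Trim59, a membrane-anchored member, at 37.2 and 30.6 FPKM (read ratio 0.822, 0.748 to 0.903). Trim11 stood at 32.8 and 30.1 FPKM (read ratio 0.933, 0.836 to 1.04). Trim35, Trim23, which carries an ARF domain, and Trim41 had intervals that hold 1, from 0.878 to 1.11, from 0.829 to 1.24 and from 0.959 to 1.29. Trim16, which lacks the RING finger, was low but had an interval above 1, at 0.75 and 1.54 FPKM and a read ratio of 2.08 (1.28 to 3.47). Trim44 stood at 19.4 and 16.4 FPKM (read ratio 0.848, 0.772 to 0.931), Trim68 at 7.41 and 5.46 FPKM (read ratio 0.737, 0.575 to 0.942) and Trim62 at 4.16 and 2.98 FPKM (read ratio 0.724, 0.544 to 0.96), with intervals below 1. Trim3, Trim7, Trim13, Trim36, Trim47 and Trim65, all under 6 FPKM, had intervals that hold 1. The NHL-repeat member Trim32, tied to muscle disease, stood at 4.69 and 3.94 FPKM (read ratio 0.840, 0.648 to 1.09).

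Members known from muscle and nerve had low levels. Trim63, the muscle ligase MuRF1, held 2.19 and 1.98 estimated reads, and its relative Trim55 held 0 and 5.00. Trim46, which organises neuronal microtubules, was at 1.52 and 1.62 FPKM (read ratio 1.11, 0.698 to 1.77), and Trim9, a neuronal member, held 1 read in both. Of the 20 members under 1 FPKM in both libraries, 19 had an interval that holds 1, and Trim66 lay above it. Where each library gave 10 reads, the interval of a read ratio runs from 0.375 to 2.69, so smaller differences of members with so few reads were not detectable.

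TRIM proteins whose genes carry other names were also measured, 5 of 7 on a list of them. Pml, the interferon-induced organiser of nuclear bodies known as TRIM19, stood at 33.9 and 20.6 FPKM, a read ratio of 0.607 (0.557 to 0.661) and a log2 ratio of -0.69. Mefv, which encodes pyrin (TRIM20), an inflammasome sensor of neutrophils and monocytes, was higher at 0.14 and 6.12 FPKM on 4 and 173 reads, a read ratio of 43.4 (16.7 to 161). In the same libraries the 10 myeloid progenitor and granule markers summed to 4.65 and 1236 FPKM, and their part in the Mefv value was not tested. Mid1 (TRIM18) stood at 5.24 and 8.39 FPKM (read ratio 1.55, 1.26 to 1.91).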

How the data were processed

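RNA sequencing was measured in 1 healthy and 1 leukemia library of sorted splenic Treg cells. RSEM and Bowtie2 2.2.5 are named in the submitters' processing notes, while the sources used here do not give a genome build. Per the file headers, the deposited tables hold expected counts (estimated reads, 8929601 and 8897162 in all), FPKM and a transcript length (another column, also deposited by the authors). Genes are named by NCBI Gene ID: 21713 of 23248 matched a RefSeq symbol (GRCm38.p6) by ID, 22 by accession, and 1513 had none. Log2 ratios took a pseudocount of 1 FPKM over genes that reached 1 FPKM in at least 1 library. Read-ratio intervals used counts rounded to whole numbers (Python 3.11.15, scipy 1.17.1). They were tried on simulated counts with counting error only. That simulation held no reads shared among copies, so it cannot check the intervals for such genes. TMM factors came from edgeR 4.0.16, for scaling only. Shared words were 50-base words of GENCODE transcripts; the authors' read length is not given. Of 59 member promoters, 51 read into their own transcript in the stated direction.

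No test across libraries was run, since each group has 1. Named were all interferon-induced members, all past 2-fold, the 10 highest by mean FPKM, the highest of each structural class, the 5 largest log2 ratios among the other members and up to 3 per list; others named were chosen after their values were seen. Members, lists and the T cell centring were chosen with earlier results of these data known. The alternatives were other pseudocounts, filters and scalings, summed copies and a shorter promoter.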

Additional observations from a re-analysis of the deposited data

How the results depend on the processing

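The interferon-induced median of -0.53 lay between -0.61 (FPKM rescaled to 1000000 per library) and -0.45 (no filter) in the alternatives that did not centre on T cell receptor genes. Centring moved it to -0.065, and to -0.012 over all 16 with no filter, where 8 lay below and 8 above 0. Centring also moved the median of the other members from -0.12 to 0.32, and of 24 named members at 1 FPKM or more 8 changed sign under it, against 1 under the rescaling and 0 under the median ratio, TMM-scaled counts or a pseudocount of 0.1 FPKM. Counts past 2-fold rest on members at low levels (Trim45, Trim30c and Trim43c) and on members that only some scalings move past the threshold. The 1 higher member became 2 with a pseudocount of 0.1 FPKM, 3 when centred and 0 with a filter of 5 FPKM. The 1 lower member became 3 with rescaled FPKM, where Trim30a (-1.04) and Trim30d (-1.005) passed, and 0 with a filter of 5 FPKM or with the Trim30, Trim12 and Trim34 copies each summed. The added higher members were Trim43c (1.60) with the smaller pseudocount, and Trim37 (1.24) and Trim28 (1.14) when centred. The stricter filter left out Trim45 and Trim30c, and summing removed Trim30c as a gene of its own. What in the samples underlies these values was not tested. The motif occurred in 9 of 15 interferon-induced promoters and in 5 without the 50 bases after the start. No paired analysis was possible because each group has 1 library. Depth limits members under about 10 reads, and intervals cover counting error only.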

Other observations

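Ubiquitin ligases act with an activating enzyme (E1) and a conjugating enzyme (E2), and the genes for those lay on both sides of even. Of 16 listed, 15 reached 1 FPKM and none was 2-fold different (6.55% of all genes were higher and 1.95% lower). The read-ratio interval lay above 1 for 8 of the 15 (29.0% of all genes), below 1 for 5 (23.5%) and held 1 for 2. Their median log2 ratio was 0.16, beside 0.02 for all genes. The lowest was Ube2l6, the E2 enzyme for the ubiquitin-like modifier ISG15 (39.4 and 21.0 FPKM, -0.88), whose E1 enzyme Uba7 stood at 53.4 and 43.3 FPKM (-0.30). Isg15 itself was 2-fold lower, at 89.0 and 35.5 FPKM (-1.30). The highest were Ube2e3 (10.1 and 19.5 FPKM, 0.88) and Ube2w (7.24 and 11.3 FPKM, 0.57). The E2 genes most used with RING ligases also lay on both sides, with Ube2d3 at 158 and 145 FPKM (-0.13), Ube2d2a at 117 and 93.1 FPKM (-0.32) and Ube2n at 32.7 and 36.9 FPKM (0.17).

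The deposited transcript length moved the FPKM ratio away from the read ratio in a few members at low levels. Trim40 stood at 0.16 and 0.50 FPKM, an FPKM ratio of 3.13, on 3 and 6 reads, a read ratio of 2.01 (0.429 to 12.4). Trim2 had an FPKM ratio of 1.22 and a read ratio of 1.44 (0.941 to 2.23). For Trim45 these were 3.92 and 2.71.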
